A study of Mus musculus with 12 samples.

Results

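The genes of the hypoxia-inducible factor (HIF) pathway core were described in mouse fetal ovary after dexamethasone (dex), a synthetic glucocorticoid that activates the glucocorticoid receptor. The 9 genes were chosen by name: the HIF alpha subunits Hif1a, Epas1 and Hif3a, the beta subunit Arnt, the prolyl hydroxylases Egln1, Egln2 and Egln3, the asparaginyl hydroxylase Hif1an and the ubiquitin ligase subunit Vhl. They were 9 of the 54532 genes in the deposited count table. The family was picked with the response of Hif3a to dex already known, so the dex values of its members are given below as a description and not as tests. All libraries came from ovaries of E15.5 embryos carrying the transgene Tg(Pou5f1-EGFP)2Mnn, in which Pou5f1 (OCT4) regulatory sequence drives GFP in germ cells. Dams were injected intraperitoneally with 10 µg dex per g body weight, or with saline as the control, once a day on 4 days from E12.5 to E15.5. Sorting gave 4 groups of 3 libraries: GFP-positive germ cells after dex, GFP-positive germ cells after saline, GFP-negative somatic cells after dex and GFP-negative somatic cells after saline. The somatic fraction held every GFP-negative cell type of the ovary, and the cells of each library were pooled over litters.

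HIF is a heterodimer of an alpha subunit, whose stability depends on oxygen, and the constitutive partner ARNT. When oxygen is plentiful, the EGLN enzymes hydroxylate prolines of the alpha subunit, VHL recognises the hydroxylated protein and brings it to a ubiquitin ligase, and HIF1AN (factor inhibiting HIF) hydroxylates an asparagine and blocks coactivator binding. When oxygen falls, the alpha subunit persists and HIF activates genes of glucose uptake, glycolysis, angiogenesis and matrix modification, including Egln3 and, to a lesser degree, Egln1, which thereby form a feedback loop. These steps act on protein, whereas the data below are transcript levels.

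HIF-1 alpha is encoded by Hif1a (ENSMUSG00000021109, chr12:73901375-73947530, plus strand of GRCm38), the broadly expressed oxygen-regulated subunit. HIF-2 alpha is encoded by Epas1 (ENSMUSG00000024140, chr17:86753907-86833410, plus strand), known for its expression in endothelium. HIF-3 alpha is encoded by Hif3a (ENSMUSG00000004328, chr7:17031507-17062427, minus strand), some of whose splice forms antagonise the other alpha subunits. The shared beta subunit is encoded by Arnt (ENSMUSG00000015522, chr3:95434388-95497240, plus strand). The prolyl hydroxylases PHD2, PHD1 and PHD3 are encoded by Egln1 (ENSMUSG00000031987, chr8:124908587-124949324, minus strand), Egln2 (ENSMUSG00000058709, chr7:27158658-27166802, minus strand) and Egln3 (ENSMUSG00000035105, chr12:54178981-54203860, minus strand). Factor inhibiting HIF is encoded by Hif1an (ENSMUSG00000036450, chr19:44562850-44576274, plus strand), and the ligase subunit by Vhl (ENSMUSG00000033933, chr6:113623959-113631633, plus strand). Counts were summed over exons of each gene, so the splice forms of Hif3a were not separated. In the GENCODE M21 annotation, exons of Hif1a share 330 bases with the antisense gene Gm15283 and 148 bases with Gm49321 on the same strand, and exons of Egln2 share 11 bases with Cyp2t4 on the opposite strand. Whether counting used strand is not known, so the values of these 2 genes are uncertain by the reads of those neighbours.

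Promoter sequences are shown for Hif3a and Egln3, the members with the largest differences between dex and saline. RefSeq promoter windows on GRCm38.p6 were found for 8 of the 9 genes, all but Epas1. The 250 bases before each start site are printed 5′ to 3′ in the orientation of the gene, with HIF response element cores (ACGTG or GCGTG, on either strand) in capitals.
Hif3a, chr7:17062428-17062677, minus strand: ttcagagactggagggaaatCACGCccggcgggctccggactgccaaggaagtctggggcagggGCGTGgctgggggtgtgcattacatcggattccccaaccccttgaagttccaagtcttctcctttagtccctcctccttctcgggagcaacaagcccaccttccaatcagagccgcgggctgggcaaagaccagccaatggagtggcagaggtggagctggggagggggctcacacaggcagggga
Egln3, chr12:54203875-54204124, minus strand: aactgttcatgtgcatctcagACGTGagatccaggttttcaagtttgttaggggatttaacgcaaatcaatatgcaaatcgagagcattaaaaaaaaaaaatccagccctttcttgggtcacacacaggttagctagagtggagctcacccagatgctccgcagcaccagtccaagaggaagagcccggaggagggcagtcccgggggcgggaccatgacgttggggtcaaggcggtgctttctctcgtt
The Hif3a window held 2 such cores, whose first letters lay 230 and 186 bases before the start site. The Egln3 window held 1, at 229 bases before the start site. A core was present in at least 1 window of 6 of the 8 matched genes, and in 38.6% of the 32851 windows of the same length in the table. The palindromic glucocorticoid response element, searched as GNACA and TGTNC with 3 bases of any kind between them and N for any base, was in none of the members' windows and in 0.387% of all windows. A match or its absence describes these letters in this window only.

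Library depth ranged from 14658503 to 18245507 counts, with 23206 to 26454 genes detected, and 3 counts, taken as the floor of detection, corresponded to 0.169 to 0.196 CPM. CPM is the count scaled to the library total, computed here from the deposited counts with TMM factors, and it allows a gene to be compared between libraries. The sort matched its labels: the 7 germ cell markers summed to 2470 to 3030 CPM in germ cell libraries against 2.88 to 6.07 CPM in somatic libraries after saline and 15.2 to 20.5 CPM after dex. In the somatic dex libraries Pou5f1 and Dppa3 were at 0, and Dazl, 1 of 4 germ cell markers tested there, was called higher after dex. Markers of other cell types in the germ cell libraries are given beside the results that they touch. The labels call the replicates biological, and p-values measure the spread between these pooled samples.

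All 9 genes were detected in all 12 libraries. Levels of different genes were compared only in the deposited FPKM (fragments scaled to exon length and library depth), which corrects for gene length. In germ cells after saline, Egln2 was the highest at 50.1 ± 0.309 FPKM (SD, n = 3), followed by Hif1an at 24.0 ± 0.83, Egln1 at 20.4 ± 2.3 and Hif1a at 18.6 ± 0.807 FPKM. Vhl at 9.63 ± 0.431, Arnt at 4.61 ± 0.232 and Epas1 at 2.04 ± 0.175 FPKM followed, and Hif3a at 1.14 ± 0.0255 and Egln3 at 0.452 ± 0.161 FPKM were the lowest. The library ranges of Egln1 and Hif1a overlapped, and no other neighbours in this order did. The hydroxylases Egln2 and Hif1an thus lay above every alpha subunit in germ cells.

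The order was different in somatic cells. After saline, Hif1a was first at 30.0 ± 2.16 FPKM, Egln2 was at 27.3 ± 0.594 and Hif3a came next at 26.0 ± 1.17 FPKM. Egln1 followed at 20.7 ± 1.03, Vhl at 17.5 ± 1.62, Arnt at 15.3 ± 0.73 and Hif1an at 10.8 ± 0.488 FPKM. Epas1 at 5.91 ± 0.616 and Egln3 at 4.42 ± 0.881 FPKM were again low. The ranges of Egln2 and Hif3a overlapped, as did those of Vhl and Arnt. After dex, Hif3a was first in somatic cells at 71.2 ± 4.5 FPKM, above Hif1a at 31.4 ± 1.02 FPKM. Egln3 was at 25.2 ± 1.01 FPKM, next to Egln1 at 27.6 ± 1.63 and Egln2 at 26.7 ± 0.938 FPKM, and the library ranges of these 3 hydroxylases overlapped. In germ cells after dex the only exchange was between Hif3a at 2.85 ± 0.46 and Epas1 at 2.07 ± 0.398 FPKM, whose ranges overlapped.

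**Figure D1:**
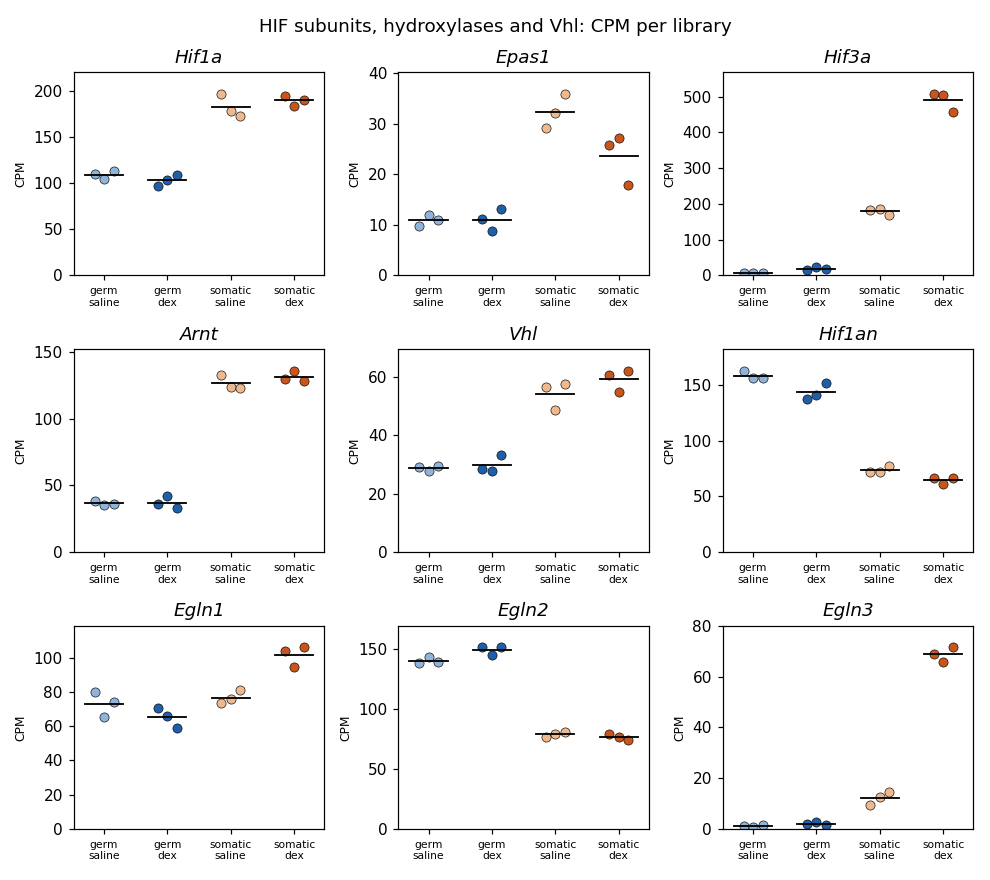
CPM of each gene (vertical axis, linear, a separate scale per gene) in each of the 12 libraries, by group, with a bar at the mean of 3 libraries. Hif3a and Egln3 in somatic cells after dex lie far above the other groups, at means of 490 and 68.7 CPM, while Egln2 and Hif1an are the genes with higher levels in germ cells.

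Germ cells and somatic cells were then compared under each treatment. The saline comparison does not hold the dex libraries, although its libraries are also the controls of the dex comparisons. The comparison after dex rests on the dex libraries on which the family was selected, so the members' values in it are a description with no test. The test was edgeR's quasi-likelihood test with p-values adjusted by the Benjamini-Hochberg (BH) procedure over all genes, and a gene was called at an adjusted p of at most 0.05. After saline, 2 of the 9 genes were higher in germ cells and 6 were lower, against a background in which 86.1% of all 17941 genes tested were called, 43.1% higher and 42.9% lower. A call was therefore the usual outcome, and the size of the differences carries the information.

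Among the subunits, Hif3a had the largest difference. Its CPM was 7.68, 7.5 and 7.66 in germ cell libraries and 182, 186 and 170 in somatic libraries after saline. The somatic libraries all lay far above the germ cell libraries. The log2 difference, germ minus somatic, was -4.56 ± 0.09 (SE, edgeR BH-adjusted p = 2.59e-15), and germ cells held 4.24% ± 0.0553 (SD, n = 3) of the somatic level. Arnt, the beta subunit, was at 38.6, 35.7 and 36.2 CPM in germ cells against 133, 124 and 123 CPM in the somatic libraries, a log2 difference of -1.78 ± 0.07 (edgeR BH-adjusted p = 6.84e-12). Its paralog Arnt2, which is not among the members, was at 43.6 to 45 CPM in germ cells and 60.6 to 67.5 CPM in the somatic libraries. Epas1 was lower in germ cells by -1.58 ± 0.13 (edgeR BH-adjusted p = 1.94e-08) and Hif1a by -0.74 ± 0.07 (edgeR BH-adjusted p = 2.03e-07) on the log2 scale. Every HIF subunit among the members was thus lower in germ cells, where 42.9% of all genes tested were called lower. The groups did not overlap, but the share of all genes without overlap was not counted, so nothing is read from that. In bulk samples, fewer cells of a type and less RNA per cell cannot be told apart, and the somatic values are means over its cell types.

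The enzymes split. Hif1an was at 163, 156 and 156 CPM in germ cells against 71.7, 71.7 and 77.3 CPM in the somatic libraries, which put germ cells higher by 1.10 ± 0.07 on the log2 scale (edgeR BH-adjusted p = 8.09e-10). Egln2 was also higher in germ cells, by 0.83 ± 0.07 (edgeR BH-adjusted p = 1.39e-08). Both enzymes had germ cell libraries wholly above the somatic libraries. Egln1, the main oxygen sensor of the family in most tissues, did not pass the test after saline (log2 difference -0.07, 95% interval -0.26 to 0.11, edgeR BH-adjusted p = 0.427). Egln3 was lower in germ cells by -3.32 ± 0.27 (edgeR BH-adjusted p = 1.93e-08), with 15 to 29 counts per germ cell library, and Vhl by -0.91 ± 0.09 (edgeR BH-adjusted p = 2.41e-07). After dex, 2 of the 9 genes were higher in germ cells and 7 were lower, against 84.3% of 18171 genes called (42% higher, 42.2% lower). Nothing is read from this count. Egln1 was at 70.8, 65.9 and 59 CPM in germ cells against 104, 94.8 and 106 CPM, a log2 difference of -0.67 ± 0.09 (SE). For Egln3 the log2 difference after dex was -5.11 ± 0.16 and for Hif3a -4.71 ± 0.12, with the somatic levels of both genes higher than after saline.

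In somatic cells, dex and saline libraries were set side by side for each subunit. Hif3a was at 182, 186 and 170 CPM after saline and at 508, 503 and 457 CPM after dex. Every dex library lay well above every saline library, the mean went from 179 ± 8.37 to 490 ± 28.6 CPM (SD, n = 3) and the log2 fold change was 1.45 ± 0.07 (SE). Epas1 was at 29.1, 32 and 35.9 CPM after saline and at 25.7, 27.1 and 17.8 CPM after dex, a log2 fold change of -0.45 with a 95% interval of -0.76 to -0.14. The groups did not overlap, and dex replicate 3 was the lowest. This difference was not called by edgeR, and was called by DESeq2 (-0.46) and without the low-count filter (-0.46). Beside it, the 8 endothelial markers summed to 334 to 399 CPM after saline and 298 to 337 CPM after dex, with none at 0. Of these markers, 2 were called lower (Cdh5, Tie1), 1 higher (Emcn) and 5 were not called. Over all genes tested, 3.36% were called lower and 4.81% higher. The part of these markers in the Epas1 value was not tested. Hif1a, at 173 to 197 CPM after saline and 184 to 195 CPM after dex, had a log2 fold change of 0.06 (95% interval -0.08 to 0.2), and that of Arnt was 0.06 (-0.07 to 0.19). The groups overlapped for both.

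Among the somatic hydroxylases, Egln3 differed the most. It had 152, 193 and 237 counts after saline (9.53 to 14.4 CPM) and 1153, 1169 and 1218 counts after dex (65.8 to 71.5 CPM). The groups were far apart, with means of 12.1 ± 2.43 and 68.7 ± 2.87 CPM, a log2 fold change of 2.51 ± 0.12 and a place of 31 from the top among 16556 genes ranked by fold change. Hif3a stood at 156 in the same order. Egln1 was at 73.4, 75.6 and 80.9 CPM after saline and at 104, 94.8 and 106 CPM after dex, a smaller shift of 0.41 ± 0.07 on the log2 scale that also left no overlap. For Egln2 the log2 fold change was -0.03 (95% interval -0.17 to 0.1). Hif1an had a log2 fold change of -0.17 (-0.32 to -0.03), with dex libraries at 61.6 to 67 CPM just below saline libraries at 71.7 to 77.3 CPM, and was not called. Vhl was at 48.6 to 57.4 CPM after saline and 54.9 to 62.1 CPM after dex, with overlap. The calls among the members were 3 higher (Hif3a, Egln3 and Egln1) and none lower, where 8.18% of all genes tested were called, 4.81% higher and 3.36% lower. Because the genes were selected on this response, nothing is read from that count.

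In germ cells, Hif3a was the member that differed between treatments. It was at 7.68, 7.5 and 7.66 CPM after saline (119, 127 and 132 counts) and at 16.2, 22.3 and 18.9 CPM after dex (248, 344 and 316 counts). All dex libraries lay above the saline libraries, and the log2 fold change was 1.35 ± 0.15 (SE), place 97 from the top among 16857 genes. Egln3 was at 1.03, 0.885 and 1.68 CPM after saline and 2.03, 2.59 and 1.49 CPM after dex, on 15 to 40 counts per library. The groups overlapped, and the log2 fold change of 0.78 had a 95% interval of -0.04 to 1.59, which includes 0. Egln1 was at 80.1, 65.1 and 74 CPM after saline and 70.8, 65.9 and 59 CPM after dex, with a log2 fold change of -0.14 (95% interval -0.36 to 0.08) and overlapping groups. Hif1an and Egln2 had groups that did not overlap but differed little, with log2 fold changes of -0.12 (-0.26 to 0.01) and 0.11 (-0.02 to 0.24). Hif1a (-0.07), Epas1 (0.04), Arnt (0.02) and Vhl (0.07) overlapped between treatments. Of the 9 genes, 1 was called (Hif3a, higher), where 0.208% of all genes tested were called, 0.089% higher and 0.119% lower. Hif3a was selected on this response, and nothing is read from the count.

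**Figure D2:**
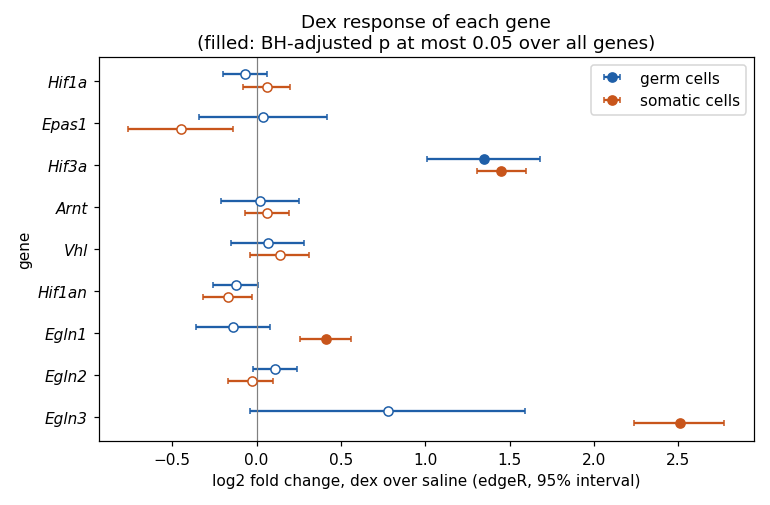
Log2 fold change of dex over saline for each gene (horizontal axis, point with 95% interval from edgeR, 3 libraries per group) in germ cells (blue) and somatic cells (orange), with filled points for genes called over all genes. Hif3a has similar values in both cell types (1.35 and 1.45), whereas Egln3 and Egln1 are called only among the somatic points, at 2.51 and 0.41.

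The difference between the dex effect in germ cells and that in somatic cells was fitted in all 12 libraries. For Hif3a it was -0.12 on the log2 scale, with a 95% interval of -0.41 to 0.17, so the fold changes of the 2 cell types were not resolved from each other. For Egln3 it was -1.76 ± 0.34 and for Egln1 -0.57 ± 0.13, both in the direction of a larger rise in somatic cells. These 2 were the members called, both lower, where 1.62% of 19390 genes were called (0.49% higher, 1.13% lower). The family was selected on its dex response, so nothing is read from that count. The Egln3 value was -1.41 and no longer called without germ saline replicate 3. Among the fits with 1 library left out, the Egln1 call held in 2, those without germ dex replicate 1 and without germ saline replicate 2, and its value stayed between -0.64 and -0.48 over all alternatives. For Epas1 the difference was 0.48 (95% interval -0.02 to 0.98), and the remaining 5 genes lay between -0.15 and 0.13.

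The composition of the family moved with these values. Hif3a made up 41.9% ± 1.29 (SD, n = 3) of the summed FPKM of the alpha subunits in somatic cells after saline and 66.6% ± 0.877 after dex, while Hif1a went from 48.5% ± 1.85 to 29.4% ± 1.57. The summed alpha subunit level was 61.9 ± 2.3 FPKM after saline and 107 ± 5.66 FPKM after dex, and the share of Hif1a fell while its level was 30.0 and 31.4 FPKM. In germ cells Hif1a kept most of the sum, 85.4% ± 1.06 after saline and 78.0% ± 0.434 after dex, and Hif3a held 5.22% ± 0.0932 and 12.7% ± 1.79. Among the prolyl hydroxylases, Egln3 held 8.38% ± 1.3 of the summed FPKM in somatic cells after saline and 31.7% ± 0.597 after dex. In germ cells Egln3 held 0.636% ± 0.222 and 1.06% ± 0.29, and Egln2 held 70.7% ± 2.49 and 73.8% ± 1.96. After dex the 3 prolyl hydroxylases were close to equal parts in somatic cells, with Egln1 at 34.7% ± 1.02 and Egln2 at 33.6% ± 1.48.

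**Figure D3:**
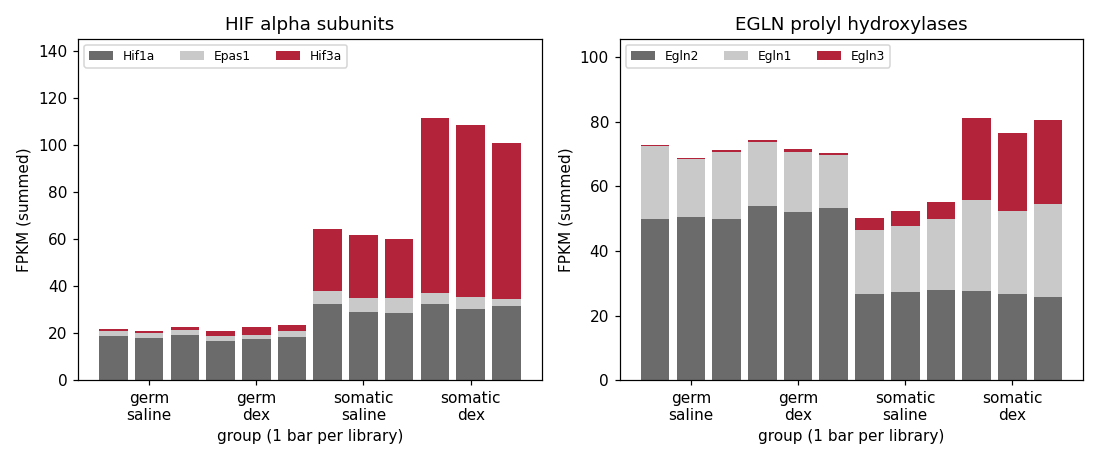
Deposited FPKM of the alpha subunits (left) and the prolyl hydroxylases (right), stacked, with a bar for each of the 12 libraries in their 4 groups. The red segments, Hif3a and Egln3, grow in the somatic dex libraries to 66.6% and 31.7% of the sums and stay thin in the germ cell libraries.

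The low level of Hif3a in germ cell libraries was set beside the levels of somatic markers in these libraries. Germ cell libraries held 4.24% ± 0.0553 of the somatic Hif3a level after saline and 3.91% ± 0.621 after dex, and the germ cell increase of 11.5 CPM was 3.71% of the somatic increase of 310 CPM. For Egln3 the germ cell level was 9.9% ± 3.5 of the somatic level after saline and 2.97% ± 0.8 after dex, and its increase of 0.837 CPM was 1.48% of the somatic 56.6 CPM. Somatic cell markers, measured in the same way as the median over each list, stood after saline and dex at 8.37% and 12.1% for pregranulosa cells, 5.08% and 14.9% for macrophages, 2.63% and 2.29% for endothelium, and 1.67% and 1.34% for perivascular cells. They stood at 1.07% and 0.531% for epithelium, 0.666% and 0.612% for stroma and 0.391% and 0.396% for erythroid cells. The Hif3a percentage thus fell inside the range of these lists. In summed CPM, pregranulosa markers were at 27.4 to 53.8 after saline and 23.5 to 77.9 after dex in germ cells, stroma markers at 118 to 194 and 141 to 250, and perivascular markers at 7.74 to 10.2 and 11.6 to 12.6. Endothelial markers were at 46.4 to 52.8 and 50.1 to 58.5 CPM, macrophage markers at 32.3 to 43.6 and 35.8 to 47.6, epithelial markers at 28.6 to 36.2 and 21.9 to 31.4, and erythroid markers at 32.5 to 41.7 and 10.1 to 48.7. Under each treatment, 1 of the 8 endothelial markers was called higher in germ than in somatic cells and 7 were called lower. Over all genes, 43.1% were called higher after saline and 42% after dex. The endothelial sum was thus not specific to somatic cells. Of 37 somatic markers that could be tested in germ cells, none was called by edgeR or DESeq2, where edgeR called 0.208% of all genes. An unadjusted p under 0.05 was found for 4 of the 37, where 1963 of all 16857 genes had one. Nothing is read from these counts. Only the erythroid gene Hba-a2 and the epithelial gene Msln were at 0 in a germ cell group, after dex. A covariate was built for each library from the summed markers of pregranulosa cells, stroma, endothelium, perivascular cells and epithelium. Stroma markers were its largest part, and macrophage and erythroid markers were not in it. The endothelial marker that was higher in germ cells was kept in it. With this covariate, the germ cell log2 fold change of Hif3a was 1.29 ± 0.16 (SE), which is a description like the value without it. Whether the germ cell reads of Hif3a came from germ cells was not tested.

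**Figure D4:**
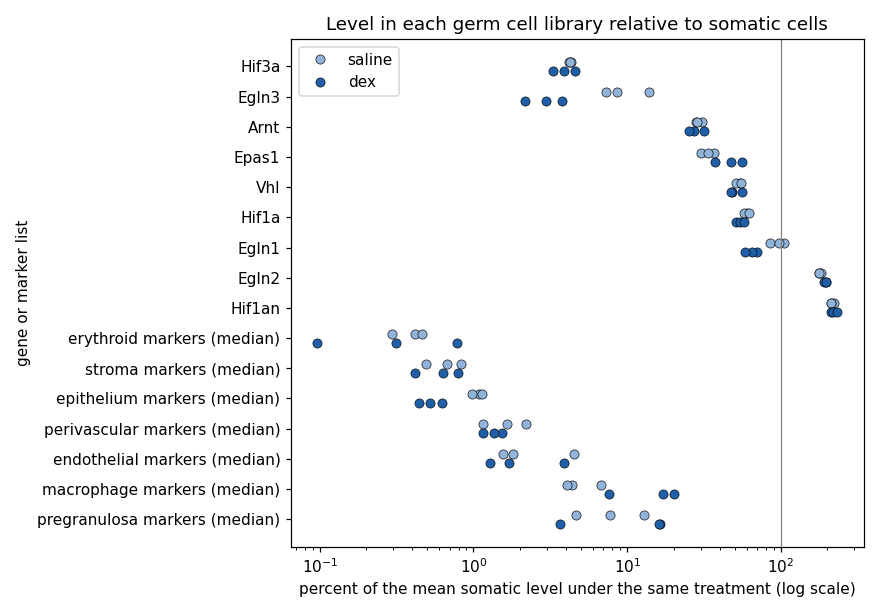
Level in each germ cell library as a percent of the mean somatic level under the same treatment (horizontal axis, log scale), for each gene and for the median of each somatic marker list. Hif3a lies near 4% under both treatments, Egln3 drops from 9.9% to 2.97%, and the marker lists span 0.391% to 14.9% by group mean.

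The genes that HIF is known to activate were then examined, from a list of 54 targets. In somatic cells, 21 of the 53 targets tested were higher after dex, 2 were lower and 30 were not called. That is 39.6% called higher, where 4.81% of all genes were, and the median log2 fold change of the targets was 0.24, where that of all genes was 0.000142. DESeq2 called 24 of the 54. Targets and the other pathway genes together had 23 calls, all of them targets, and this count over both lists became 14 without somatic dex replicate 2, 13 without somatic saline replicate 1 and 13 without somatic saline replicate 2. These targets share libraries with the dex comparison of the family, and the list was drawn up with earlier results known.

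Of the 5 collagen-modifying targets, 5 were called higher, where 4.81% of all genes were. Lox, the lysyl oxidase that cross-links collagen and elastin, was at 191, 179 and 173 CPM after saline and 619, 610 and 435 CPM after dex. The dex libraries all lay above the saline libraries, and the log2 fold change was 1.62 ± 0.11 (edgeR BH-adjusted p = 7.81e-07). P4ha2, a subunit of collagen prolyl hydroxylase, rose by 1.09 ± 0.07 (edgeR BH-adjusted p = 6.48e-07). Plod2 (0.38), P4ha1 (0.27) and Plod1 (0.26), which hydroxylate collagen lysine or proline, rose less. Over 11 alternatives the calls of Lox and P4ha2 held in all. The calls of Plod2, P4ha1 and Plod1 were not followed over the alternatives. Of the 20 targets in glucose uptake and glycolysis, 6 rose and 14 were not called, with a median of 0.12. The 6 were Hk2, a hexokinase, at 0.79 ± 0.08 (edgeR BH-adjusted p = 2.07e-05), the glucose transporter Slc2a1 at 0.67 ± 0.08 (edgeR BH-adjusted p = 0.000178), Pgam1 (0.46), Slc2a3 (0.4), Pfkfb3 (0.32) and Hk1 (0.31). The abundant glycolytic enzymes Gapdh (0.02), Pgk1 (0.08), Eno1 (0.07), Ldha (0.16) and the pyruvate dehydrogenase kinase Pdk1 (0.15) were not called. Glycolytic genes have many processed pseudogenes, and how reads with several matches were counted was not stated.

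Of the 7 mitochondrial targets, 3 rose: Ndufa4l2 (1.08 ± 0.13, edgeR BH-adjusted p = 0.000194), Cox4i2 (0.85 ± 0.19, edgeR BH-adjusted p = 0.012) and the mitophagy receptor Bnip3 (0.48). Both Ndufa4l2, at 8.85 to 11.4 CPM after saline and 19.6 to 22.1 after dex, and Cox4i2, at 4.33 to 5.16 and 7.34 to 9 CPM, are also known from pericytes. The 7 perivascular markers summed to 556 to 573 CPM after saline and 600 to 742 CPM after dex in somatic libraries, and none was at 0. Of them, 3 (Cspg4, Kcnj8, Abcc9) were called higher and 4 were not called, with a median log2 fold change of 0.07 over the 7. Over all genes tested, 4.81% were called higher. The part of the perivascular markers in these values was not tested. The Cox4i2 call was lost in 4 alternatives, among them without somatic dex replicate 2 (0.78), without somatic saline replicate 1 (0.8) and without somatic saline replicate 3 (0.81). Of the 7 secreted targets tested, Adm, the vasodilator adrenomedullin (0.92 ± 0.13, edgeR BH-adjusted p = 0.000666), and Stc2 (0.76 ± 0.11, edgeR BH-adjusted p = 0.000759) rose. Vegfa, the angiogenic factor most often used as a HIF readout, was at 178 and 182 CPM, with a log2 fold change of 0.03.

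Of the 14 regulators and iron, pH or stress genes, 5 rose and 2 fell. Ndrg1 was at 52, 44.5 and 50.7 CPM after saline and 105, 117 and 143 CPM after dex. No library overlapped, and the log2 fold change was 1.32 ± 0.11 (edgeR BH-adjusted p = 3.68e-06). The transcription repressor Bhlhe40 rose by 0.70 ± 0.11 (edgeR BH-adjusted p = 0.00173), Ddit4, an inhibitor of mTORC1, by 0.57, the MYC antagonist Mxi1 by 0.48 and Zfp395 by 0.36. Tfrc, the transferrin receptor, fell by 0.51 and Ccng2 fell by 0.23 on the log2 scale. Erythroid cells are rich in Tfrc, and the 6 erythroid markers summed to 7380 to 12400 CPM after saline and 3270 to 16500 CPM after dex, with none called. The other somatic marker lists moved as follows. Macrophage markers summed to 170 to 226 CPM after saline and 46.7 to 118 CPM after dex, with 5 of 7 called lower. Stroma markers had 1 of 7 called higher (Pdgfra) and pregranulosa markers 1 of 7 called lower (Wnt4), while none of 5 epithelial and none of 4 steroidogenic markers tested was called, with no unadjusted p under 0.05. No marker of the somatic lists was at 0 in somatic cells except the steroidogenic Cyp11b1. Over all genes tested, 4.81% were called higher and 3.36% lower. The part of these marker shifts in the target values was not tested.

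**Figure D5:**
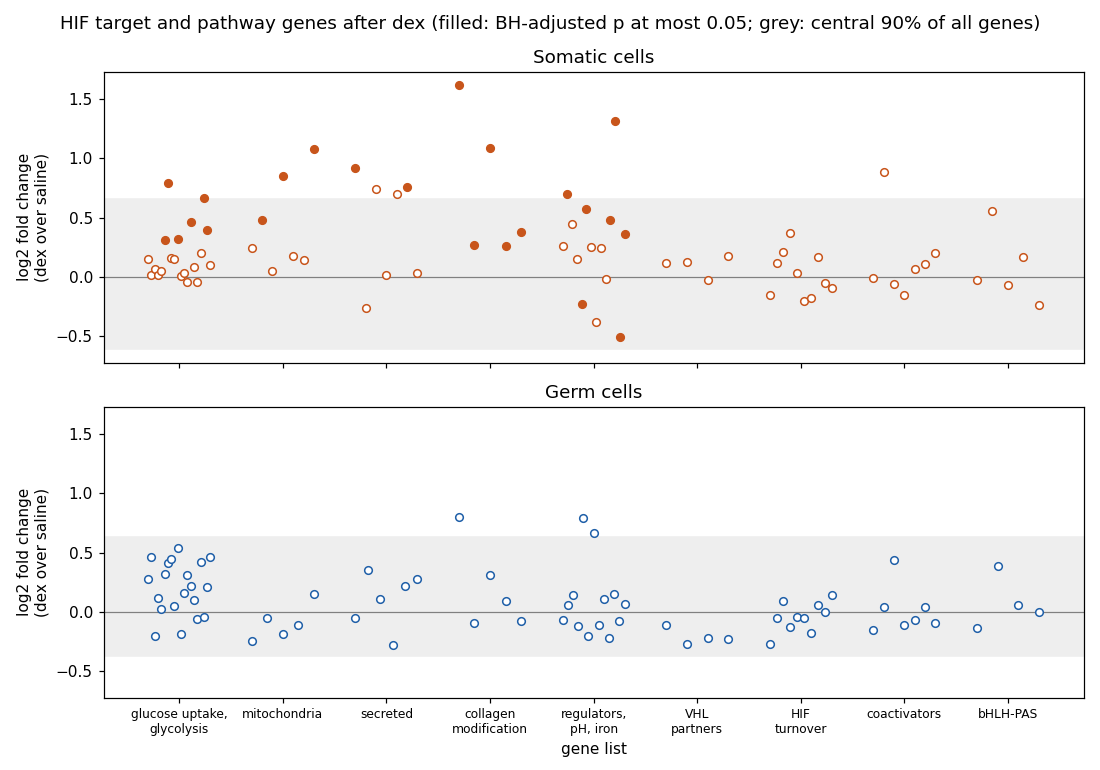
Log2 fold change of dex over saline (vertical axis) for each target and pathway gene tested, by list, in somatic cells (top) and germ cells (bottom), with filled points for called genes and a grey band over the central 90% of all genes. Filled points are 21 higher and 2 lower among somatic targets, where 8.18% of all somatic genes were called. There are none in germ cells, where 0.208% of all genes were called. There are also none in the lists of VHL partners, turnover genes, coactivators and bHLH-PAS relatives.

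In germ cells, edgeR called none of 49 targets tested after dex, where 0.208% of all genes were called. With that share, nothing is read from the count. The median log2 fold change of the targets was 0.11, where that of all genes was 0.0142. An unadjusted p under 0.05 was found for 10 of them, where 1963 of all 16857 genes had one. DESeq2 called 1 target, Ddit4. This gene, singled out after its values were seen, had 210, 293 and 257 counts after saline (up to 17.3 CPM) and 326, 433 and 485 counts after dex (21.3 to 28.9 CPM). The groups did not overlap, and the log2 fold change of 0.79 ± 0.14 had an edgeR BH-adjusted p of 0.0503. The somatic log2 fold change of Ddit4 was 0.57, and the difference between the cell types was 0.21 (95% interval -0.19 to 0.62, edgeR BH-adjusted p = 0.644). For 5 targets the dex effect differed between the cell types by the test of the difference, all lower in germ cells: Ndrg1 (-1.18 ± 0.2, edgeR BH-adjusted p = 0.00497), P4ha2 (-0.79), Mxi1 (-0.72), Slc2a1 (-0.72) and Ero1l (-0.46), an oxidase of the endoplasmic reticulum. Over 17 alternatives, the calls of Ndrg1 and Mxi1 held in all, whereas the call was lost in 3 for Slc2a1 (adjusted p up to 0.0524), in 10 for P4ha2 (up to 0.0866) and in 11 for Ero1l (up to 0.129). In germ cells Ndrg1 was at 9.98 to 12.9 CPM after saline and 11.1 to 14.9 CPM after dex, with overlap. These 5 were 9.43% of the 53 targets tested, where 1.13% of all genes were called lower. The list was drawn up with earlier results known, and the libraries of the somatic dex comparison also enter this test. The count is therefore a description. The difference was not called for Lox (-0.84, edgeR BH-adjusted p = 0.201).

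The targets also differed in level between the cell types. After saline, 40 of 53 were lower in germ cells, 9 were higher and 4 were not called. Over all genes tested, 42.9% were called lower and 43.1% higher. The median log2 difference of the targets was -2.24, where that of all genes was 0.0047. All 20 genes of glucose uptake and glycolysis were lower in germ cells, with a median of -3.32, and Tpi1, a glycolytic isomerase, had a mean of 7.04 ± 1.77 CPM in germ cells against 404 ± 18.3 CPM in the somatic fraction (log2 difference -5.84 ± 0.13, edgeR BH-adjusted p = 1.19e-14). Lox was lower by -6.58 ± 0.15 (edgeR BH-adjusted p = 1.59e-14). The fitted germ to somatic ratios of Tpi1 and Lox were 0.0175 and 0.0104. Somatic marker lists in the same germ cell libraries stood at medians of 0.391% to 8.37% of the somatic level. Whether these Tpi1 and Lox reads came from germ cells was not tested, and how pseudogene reads were counted was not stated. Ndufa4l2 and Edn1, the vasoconstrictor endothelin, were at or under 3 counts in every germ cell library after saline, and against that floor, per library, were at least 51.8-fold and 19.1-fold lower than in somatic cells. Cox4i2 was near it, at 0.119 ± 0.0984 CPM. The targets higher in germ cells included Tfrc, at 603, 601 and 580 CPM against 62.5, 65.4 and 59.7 CPM (log2 difference 3.25 ± 0.07, edgeR BH-adjusted p = 1.43e-14), Ak4 (1.27), Bnip3 (1.05), Ero1l (0.96) and Ccng2 (0.7). After dex, 44 of 53 targets were lower and 7 higher in germ cells, where 42.2% of all genes were called lower and 42% higher.

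The other genes of the pathway, 29 in all, did not pass the test after dex. Of 26 tested in somatic cells and 25 in germ cells, edgeR and DESeq2 called none for dex. Over all genes tested, edgeR called 8.18% in somatic cells and 0.208% in germ cells. An unadjusted p under 0.05 was found for 6 list genes in each cell type. Over all genes it was found for 3453 of 16556 in somatic cells and 1963 of 16857 in germ cells. Nothing is read from these counts. The list held the partners of VHL in its ligase (Elob, Eloc, Cul2, Rbx1) and genes of HIF alpha turnover such as the ligases Siah1a and Siah2. It also held coactivators and their competitors such as Ep300 and Cited2, and bHLH-PAS relatives of the subunits such as Arnt2 and Ahr. The median log2 fold change of the list was 0.05 in somatic cells and -0.05 in germ cells. In the test of the difference, Cited2, which competes with HIF alpha for p300, was called higher (0.49 ± 0.11, edgeR BH-adjusted p = 0.0281) and Rbx1, the RING subunit of the ligase, lower (-0.42 ± 0.1, edgeR BH-adjusted p = 0.0441). Over 17 alternatives, the Rbx1 call was lost in 13 (adjusted p up to 0.152) and the Cited2 call in 5 (up to 0.0869). Cited2 was at 17.6, 19.2 and 19.6 CPM after saline and 24.8, 25.7 and 25.1 CPM after dex in germ cells, without overlap, and at 111 to 127 and 111 to 119 CPM in somatic cells, with overlap. Between the cell types after saline, 15 of 26 were higher in germ cells and 9 lower, where 43.1% of all genes were called higher and 42.9% lower. Cited1 (5.46 ± 0.14, edgeR BH-adjusted p = 5.09e-14), the ubiquitin ligase gene Siah1b (3.76 ± 0.1, edgeR BH-adjusted p = 6.54e-14) and the mediator kinase Cdk8 (2.00 ± 0.08, edgeR BH-adjusted p = 7.9e-12) had the largest positive log2 differences once genes averaging under 1 CPM were left out. Limd1 (-3.05), which scaffolds VHL and prolyl hydroxylases, P4htm (-2.96), a transmembrane prolyl hydroxylase, and Cited2 (-2.67) had the largest negative ones under the same limit, which left out Npas4 (-3.7, at means of 0.1 and 1.39 CPM).

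The genes whose pattern over the 12 libraries was most like that of Hif3a were Col8a1 (Pearson r = 0.996), Eef2k (0.9954), Clca3a1 (0.9953), Bmp6 (0.995) and Scara5 (0.9932), out of 16142 genes compared by log2(CPM + 0.5). Eef2k, a kinase that restrains translation elongation, was at means of 2.22 and 4.75 CPM in germ cells after saline and dex, and 63.8 and 172 CPM in somatic cells. Bmp6, a secreted ligand, was at 1.6 and 2.9 CPM in germ cells and 25.6 and 56 CPM in somatic cells. The points are 4 groups of libraries with a large difference between cell types, so the correlations describe that shared ordering and carry no p-value.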

How the data were processed

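Bulk RNA-seq was analysed in 12 libraries. Per the labels and the study's methods, poly-A RNA was primed with random hexamers, sequenced in pairs, aligned to mm10 with HISAT2 2.0.5 and counted with featureCounts 1.5.0-p3, and the authors deposited raw counts and FPKM values per gene. Strand and multi-mapping settings were not given in the sources used here. The authors' own DESeq2 1.20.0 tables (fold changes and p-values) were not used.

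Counts were tested with edgeR 4.0.16 (R 4.3.3, limma 3.58.1): quasi-likelihood test, TMM scaling, filterByExpr, BH adjustment over all genes tested, threshold 0.05, no fold minimum. Dex comparisons within a cell type used its 6 libraries, cell type comparisons within a treatment used 6, and the difference of dex effects used 12. Standard errors and 95% intervals derive from the quasi-likelihood F statistic. The script was tested on simulated data, in which every gene had the same spread between replicates beyond counting error. Genes of very low level were not among those changed. Of genes changed by 1 on the log2 scale, 93.1% (germ), 96.9% (somatic) and 69% (difference) were recovered. For genes changed by 0.5 the shares were 36.4%, 43.7% and 1.5%. Real genes differ in spread, so these shares are not the sensitivity of the real comparisons. In the real germ cell comparison, 15 genes were called higher, Hif3a among them at place 97 by fold change. Floors of 3 counts cover counting error only, since reads carried no molecular identifiers.

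The members and all lists were chosen with earlier results of these data known. Besides the members, the text names, for each dex comparison and the difference, up to 10 called list genes by largest fold change, for cell type comparisons 5 targets and 3 other genes per direction with at least 1 CPM, and 5 genes most like Hif3a; other list genes were named after their values were seen. Alternatives were DESeq2 1.42.0, RLE size factors, no low-count filter, leaving out each replicate, replicate blocks and all 12 libraries in 1 fit. Added after seeing the data was a covariate of summed somatic markers, without macrophage, erythroid and steroidogenic ones.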

Additional observations from a re-analysis of the deposited data

Results flagged for a closer look

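In edgeR's test of the difference of dex effects over all 12 libraries, 7 genes of the target and pathway lists were called. Their log2 differences, germ minus somatic, were -1.18 for Ndrg1, -0.79 for P4ha2, -0.72 for Slc2a1 and -0.72 for Mxi1. Those of Ero1l and Rbx1 were -0.46 and -0.42, and that of Cited2 was 0.49. For 2 members of the family the same fit gave -1.76 (Egln3) and -0.57 (Egln1). The family was selected on its dex response, so these 2 values are a description and not a test. Mxi1 had groups without overlap in both cell types and in opposite directions, at 41.7 to 42.8 CPM after saline and 32.9 to 37.8 CPM after dex in germ cells, and at 47 to 48 and 61 to 72 CPM in somatic cells. Over 17 alternatives the calls of Ndrg1 and Mxi1 held in all, while the call was lost in 3 for Slc2a1, 5 for Cited2, 10 for P4ha2, 11 for Ero1l and 13 for Rbx1. The values of the 2 members, for which no test is claimed, missed the threshold in 1 for Egln3 and 11 for Egln1. No group of 3 libraries was large enough for a check of single outlying libraries.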

How the results depend on the processing

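No called value changed direction under any alternative. Each member kept its side of the threshold in both cell type comparisons and in the germ cell dex comparison under all alternatives run. In somatic cells, Epas1 alone was called under alternatives (DESeq2, no filter). Genes called after dex in germ cells (35) numbered 158 by DESeq2, 420 without the low-count filter, 64 with all 12 libraries in 1 fit and 17 to 81 with 1 replicate left out. Target and pathway genes called there (0) numbered 1 by DESeq2 and 1 with RLE size factors (Ddit4), 2 without the filter (Ddit4, Ajuba), 2 with all 12 libraries (Ddit4, Cited2) and 0 to 1 with 1 replicate left out. Somatic genes called (1354) numbered 803 with all 12 libraries and 754 to 1881 with 1 replicate left out, and target and pathway genes (23) numbered 13 to 23. In the difference of dex effects (314), DESeq2 called 622 genes, the fit without the filter 727 and leave-one-out fits 143 to 384. List genes called there (7) numbered 11, 12 and 2 to 8, and members called (2) numbered 0 to 2 in the leave-one-out fits.

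Replicate numbers shared between groups were not used as pairs. Deviations of same-numbered libraries correlated at -0.0165 to 0.215 between treatments and 0.0798 to 0.134 between cell types, where every library correlated best with its own number, a hint from the data and not the design. With the number as a block, 49 germ cell genes, 1520 somatic genes and 313 genes in the difference were called, and among list genes 1 (Ddit4), 24 and 8. Cell type comparisons gave 15283 and 15044 genes with the block. A block nested in treatment gave 222 genes and 1 member, Egln3, in the difference.

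Egln3 in germ cells rests on 15 to 40 counts per library, and counting error and replicate spread were not separated. With 3 libraries per group, leaving out 1 reduces the samples tested; for the other shifts in counts the cause was not tested.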
